A study of Mus musculus with 18 samples.

Results

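The mitochondrial ATP synthase was followed here through 9 of its subunit genes in mouse brain cortex. The genes were picked by symbol: Atp5j and Atp5o, which lie in a duplicated stretch of chromosome 16, and Atp5a1, Atp5b, Atp5c1, Atp5d, Atp5h, Atp5g1 and Atp5g3, which lie outside it. They are 9 of 55385 genes in the deposited table. All 9 passed the filter on low counts and were among 18717 genes tested. A further gene identifier that also carries the symbol Atp5o held 3 counts over all libraries and was not tested. Its annotated span overlaps that of the tested Atp5o gene by 1769 bases on the same strand. Whether this overlap lowers the Atp5o counts was not tested.

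Polyadenylated RNA was sequenced from 18 libraries, 6 for each of 3 genotypes, with 3 males and 3 females per genotype. The controls (WT) were wild-type C57BL/6J mice. Dp16 mice carry an additional copy of the chromosome 16 segment that is orthologous to a large part of human chromosome 21, and they serve as a model of Down syndrome. Dp16_2xIFNRs mice carry the same duplication, but their interferon receptor genes are labelled as dosage-normalized. All mice were 17.1 to 18.0 weeks old and untreated according to the labels, which name no strain for the duplication genotypes. By genotype, mice of both duplication groups hold 3 copies of Atp5j and Atp5o beside 2 copies of the other nuclear subunit genes, a copy ratio of 1.5 or 0.585 on the log2 scale. The question was how far the RNA levels of a complex with fixed proportions of subunits follow this imbalance.

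ATP synthase, or complex V, sits in the inner mitochondrial membrane and makes ATP from ADP and phosphate while protons flow back into the matrix. The flow turns a ring of c subunits and the central stalk inside a catalytic head of alternating alpha and beta subunits. A peripheral stalk holds the head still against the turning ring. Peripheral stalk subunits are present singly in each complex, whereas alpha, beta and c subunits are present several times. Neurons depend on this enzyme for most of the ATP that pays for ion pumping and synaptic transmission. Both duplicated genes encode parts of the peripheral stalk: Atp5j encodes coupling factor 6 and Atp5o the oligomycin sensitivity-conferring protein, which joins the stalk to the head. Atp5h encodes the d subunit of the same stalk.

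The start regions of both duplicated genes are shown because the segment includes them and because that of Atp5j is shared with another gene. The RefSeq windows (GRCm38.p6) run from 250 bases before to 50 bases after the start site, 5′ to 3′ on the strand of the gene. The Atp5j window is chr16:84834927-84835226 and the Atp5o window is chr16:91931581-91931880, both on the minus strand. Capitals mark matches to 3 letter patterns that were chosen after the sequences had been seen: CCGGAA, the core bound by ETS factors, CGCANGCG, a core for NRF1, and AANATGGC, a core for YY1. Both strands were searched, and none of the marked matches overlap.
Atp5j: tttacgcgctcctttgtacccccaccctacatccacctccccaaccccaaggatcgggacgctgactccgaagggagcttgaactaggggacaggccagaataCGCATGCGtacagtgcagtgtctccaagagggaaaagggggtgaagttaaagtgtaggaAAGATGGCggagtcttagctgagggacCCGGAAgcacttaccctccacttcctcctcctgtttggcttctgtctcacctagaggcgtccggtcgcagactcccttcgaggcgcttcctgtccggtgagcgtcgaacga
Atp5o: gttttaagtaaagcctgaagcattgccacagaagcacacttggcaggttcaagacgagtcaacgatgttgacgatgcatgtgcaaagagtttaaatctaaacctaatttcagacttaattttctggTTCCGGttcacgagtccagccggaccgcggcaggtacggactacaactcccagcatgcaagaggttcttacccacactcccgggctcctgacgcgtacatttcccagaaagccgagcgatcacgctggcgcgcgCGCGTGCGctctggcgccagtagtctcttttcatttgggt
The Atp5j window held all 3 patterns, with the NRF1 core at base 104, the YY1 core at base 163 and the ETS core at base 190. The Atp5o window held the ETS core at base 127, read there as TTCCGG, and an NRF1 core at base 261. Of 32851 RefSeq windows of the same length, 14.9% held the ETS core, 8.21% the NRF1 core and 6.05% the YY1 core. Windows were listed for 8 members, all except Atp5a1, and 3 of these held the ETS core, 6 the NRF1 core and 2 the YY1 core in any window. Atp5j, Atp5c1 and Atp5d have more than 1 window, and Atp5d held the NRF1 core only in its second. These counts per gene therefore cannot be set directly against the shares per window. RefSeq lists a second Atp5j window with 1 ETS core, at chr16:84835576-84835875. These matches describe letters only and were not tested for binding.

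The other gene at the Atp5j window is Gabpa. It encodes the DNA-binding subunit of an ETS factor known to act on many genes of oxidative phosphorylation, and it starts 148 bases away on the plus strand, and their windows share 247 bases. The annotated spans of both genes overlap by 701 bases on opposite strands. Gabpa therefore lies in the duplicated segment as well, and its values are given beside those of Atp5j below.

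Library totals ranged from 46346019 to 67281449 counts, and each member held 4181 to 63836 counts in each library. Levels are CPM, counts relative to the library total after scaling by TMM factors, or RPKM, which also divides by gene length, where genes are compared with each other. Neuronal marker genes summed to 6013 to 7653 CPM across the 18 libraries, with no marker at 0. No gene of the 8 cell type lists was called in any comparison. Of all genes, 0.748% were called in Dp16 vs WT, 1.05% in Dp16_2xIFNRs vs WT and 0.0214% in Dp16_2xIFNRs vs Dp16. Choroid plexus markers summed to a median of 18.12 CPM in WT, 19.39 CPM in Dp16 and 14.51 CPM in Dp16_2xIFNRs. The highest library of each group reached 196.9, 389.5 and 19.32 CPM, and the part of these markers in the results below was not tested. Blood markers had log2 fold changes above 0 over WT for 4 of 4 genes in both duplication genotypes (medians 0.486 and 0.355, lowest adjusted p 0.548 and 0.47 by edgeR), with sums of 30.34 to 45.14 CPM in WT, 26.46 to 68.98 CPM in Dp16 and 30.38 to 84.39 CPM in Dp16_2xIFNRs. Oligodendrocyte markers were above WT for 4 of 5 and 5 of 5 genes (medians 0.0208 and 0.122), and microglia markers for 1 of 5 and 0 of 5 (medians -0.127 and -0.105). Striatal markers summed to 257.6 to 721.0 CPM in WT, 221.1 to 597.4 CPM in Dp16 and 226.3 to 823.2 CPM in Dp16_2xIFNRs. The part of these lists in the results was not tested either. With any single library left out, both duplicated genes were still called higher in both comparisons with WT. In whole tissue, fewer cells of a type and less RNA per cell cannot be told apart. The labels do not say outright that each library is a separate animal, so p-values measure only the spread between these samples.

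Atp5j rose in Dp16 by close to the copy ratio. The gene (ENSMUSG00000022890) spans chr16:84827866-84835625 in GENCODE M21 (GRCm38) on the minus strand. WT libraries ranged from 89.4 CPM through a median of 99.1 to 102 CPM, and Dp16 libraries from 139.9 through 147 to 155 CPM. Every Dp16 library stood above every WT library, with the lowest WT value in replicate 6. The means were 97.3 ± 5.02 and 147 ± 6.33 CPM (SD, n = 6 each). The log2 fold change was 0.59 (SE 0.0427), a fold of 1.51 with a 95% interval of 1.42 to 1.60 and an adjusted p = 3.21e-08 by edgeR's quasi-likelihood test.

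Atp5o rose in Dp16 by a like amount. This gene (ENSMUSG00000022956) lies further along the segment at chr16:91925214-91931687, also on the minus strand. WT libraries ranged from 105 CPM through a median of 123 to 126 CPM, and Dp16 libraries from 168 through 174 to 195 CPM. The groups again did not overlap, and replicate 6 was again the lowest WT library. The means were 120.1 ± 7.63 and 177 ± 10.2 CPM (SD, n = 6 each). The log2 fold change was 0.56 (SE 0.0471), a fold of 1.48 with a 95% interval of 1.38 to 1.58 and an adjusted p = 2.07e-07 by edgeR. Both intervals include the copy ratio of 1.5. These 2 of 9 members were called higher in Dp16, against 0.636% of all genes tested, and 0.721% of all genes had every Dp16 library above every WT library.

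Both genes were also higher in Dp16_2xIFNRs than in WT. Atp5j ranged from 133 CPM through a median of 142 to 151 CPM, with a mean of 143 ± 6.29 CPM (SD, n = 6). Its fold over WT was 1.47 (95% interval 1.38 to 1.57, adjusted p = 7.58e-08 by edgeR, log2 fold change 0.56, SE 0.0427). Atp5o ranged from 174 CPM through a median of 177 to 186 CPM, with a mean of 179 ± 4.87 CPM (SD, n = 6), and its fold was 1.49 (95% interval 1.39 to 1.59, adjusted p = 1.75e-07 by edgeR). For both genes all 6 libraries lay above all 6 WT libraries, as for 0.93% of all genes, and 0.737% of all genes were called higher in this comparison. The 2 comparisons with WT share their control libraries and are not independent.

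Directly compared, the duplication genotypes overlapped in both genes. Atp5j in Dp16_2xIFNRs was 0.975 times its Dp16 level (95% interval 0.917 to 1.04) and Atp5o 1.01 times (95% interval 0.941 to 1.08), each with an adjusted p of 1.0 by edgeR. In this comparison 0 of 9 members were called, against 0.0214% of all genes, and 0.107% of all genes had groups that did not overlap. Some libraries of different genotypes share an identifier in the labels. With that identifier as a block, which left 4 residual degrees of freedom, edgeR called 33 genes in Dp16 vs WT in place of 140, 60 in Dp16_2xIFNRs vs WT in place of 196, and 2 in Dp16_2xIFNRs vs Dp16 in place of 4. Both duplicated subunit genes were called in each comparison with WT under this block. For Atp5j the edgeR adjusted p was then 0.00513 in Dp16 and 0.00143 in Dp16_2xIFNRs, and for Atp5o 0.0103 and 0.00161.

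**Figure D1:**
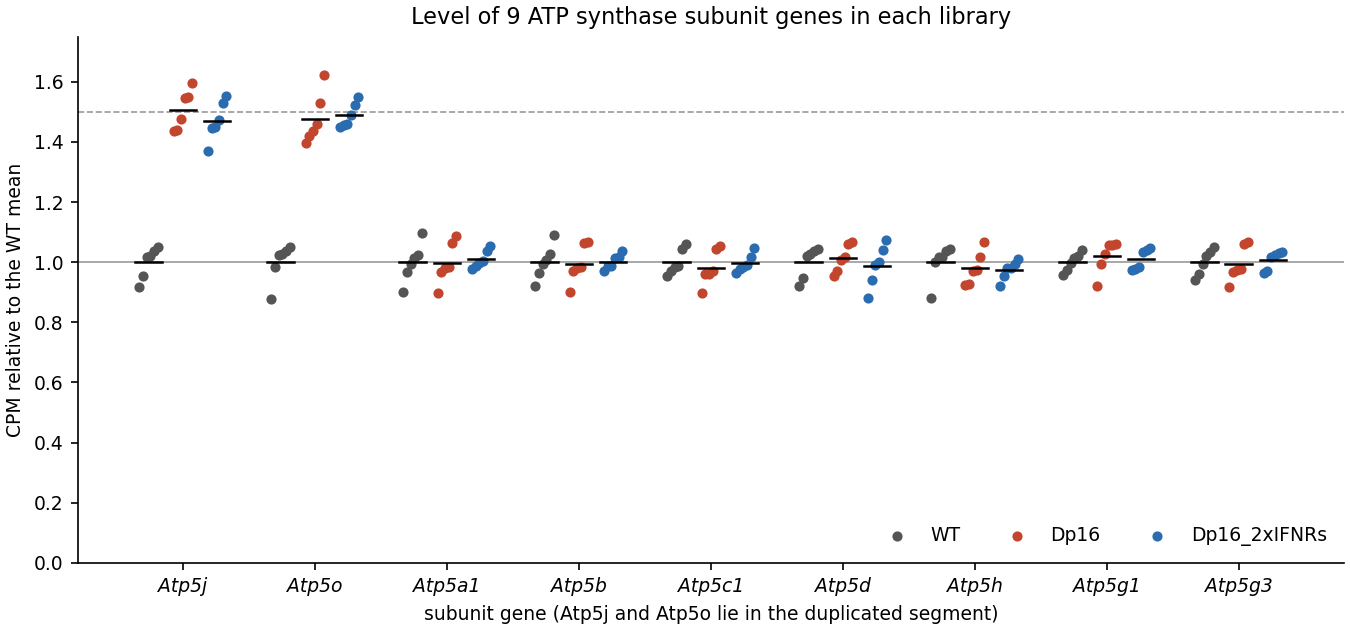
Level of each of the 9 subunit genes in each of the 18 libraries, as CPM divided by the WT mean of that gene; points are libraries in order of value, short lines are group means, and the dashed line marks the copy ratio of 1.5. Atp5j and Atp5o stand apart from WT in every library of both duplication genotypes, while the libraries of the other 7 genes overlap.

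Both subunit genes lay near the middle of the segment. Across 111 tested genes of the segment, without the receptor genes, the median log2 fold change in Dp16 was 0.55 with quartiles of 0.46 and 0.64. Atp5j had 38 genes above and 72 below it, and Atp5o had 52 above and 58 below. In Dp16_2xIFNRs the segment median was 0.56, with 56 genes above and 54 below Atp5j and again 52 above and 58 below Atp5o.

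Neighbouring genes in the segment were raised too. Gabpa went from 21.2 ± 0.445 CPM in WT to 31.6 ± 1.56 CPM in Dp16 and 31.6 ± 1.91 CPM in Dp16_2xIFNRs (SD, n = 6 each), with log2 fold changes of 0.58 in both (adjusted p = 1.28e-07 and 1.38e-07 by edgeR). Jam2, a junctional adhesion molecule gene on the other side of Atp5j, rose by 0.75 on the log2 scale (adjusted p = 9.07e-06). Itsn1, an endocytosis scaffold gene next to Atp5o, rose by 0.47 (adjusted p = 1.45e-05). Mrpl39 and Mrps6, which encode mitochondrial ribosomal proteins, rose by 0.56 and 0.62, and Cryzl1 by 0.60. All 6 of these listed segment genes were called higher in Dp16, against 0.636% of all genes tested. They were also all called higher in Dp16_2xIFNRs, against 0.737% of all genes, with a median log2 fold change of 0.60. D430001F17Rik, which is not on that list, overlaps Atp5o by 451 bases on the opposite strand. It held 4 to 28 counts per library and was not called in Dp16 (log2 fold change 0.88, adjusted p = 0.486).

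Transcripts of the duplicated subunits were searched for sequence shared with other genes. Of the 100-base stretches in Atp5j transcripts, 3.04% also occur in Gabpa on the opposite strand, and of those in Atp5o transcripts, 21.4% occur in D430001F17Rik, Gm15976 or Gm5436. Gabpa held 1007 to 2185 counts per library, beside 4319 to 9441 for Atp5j. The highest counts of D430001F17Rik, Gm15976 and Gm5436 in any library were 28, 3 and 9, against at least 5094 for Atp5o. The libraries are strand-specific, but the strand setting of the counting is not given in the sources used here.

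The third member of the peripheral stalk, outside the segment, was not called. Atp5h (chr11:115415689-115419962) had 124 ± 7.45 CPM in WT, 122 ± 6.69 CPM in Dp16 and 121 ± 3.92 CPM in Dp16_2xIFNRs (SD, n = 6 each). Its WT libraries ran from 109 CPM through a median of 126 to 129.5 CPM and its Dp16 libraries from 115 through 121 to 132 CPM, so the groups overlapped. The fold in Dp16 was 0.98 (95% interval 0.917 to 1.05, adjusted p = 0.937 by edgeR). Beside it, the b subunit gene Atp5pb, a stalk gene outside the 9 members, had log2 fold changes of 0.04 in Dp16 and 0.08 in Dp16_2xIFNRs, with adjusted p-values of 0.9 and 0.475. Of the 4 peripheral stalk genes, the 2 duplicated ones were therefore called higher and the other 2 were not called in either comparison.

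Genes of the catalytic head showed no called change. Atp5b, the catalytic beta subunit (chr10:128083273-128090391), was the most abundant member. Its libraries ran from 888 CPM through a median of 964 to 1050.3 CPM in WT and from 870.1 through 947 to 1028 CPM in Dp16. The Atp5b means were 964 ± 55.2 CPM in WT, 959 ± 59.9 CPM in Dp16 and 966 ± 24.1 CPM in Dp16_2xIFNRs (SD, n = 6 each), and the groups overlapped throughout. Its fold in Dp16 was 0.995, with a 95% interval of 0.931 to 1.06 (adjusted p = 0.989 by edgeR). Atp5a1, the alpha subunit (chr18:77773729-77782869), had 686 ± 44.7, 684 ± 47.2 and 693 ± 20.7 CPM in the same order, with folds of 0.997 and 1.01.

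No central stalk gene was called. Atp5c1, the gamma subunit that turns inside the head (chr2:10056016-10080510), had 154 ± 6.65 CPM in WT, 151 ± 9.15 CPM in Dp16 and 154 ± 4.71 CPM in Dp16_2xIFNRs (SD, n = 6 each). Atp5d, the delta subunit of the same stalk (chr10:80138632-80145818), had 181 ± 9.34, 183 ± 8.16 and 179 ± 12.5 CPM. Their folds in Dp16 were 0.982 and 1.01, and the groups overlapped for both. The largest difference among the nuclear genes outside the segment was that of Atp5e, the epsilon subunit, which is no member. Atp5e had 52.3 ± 4.70, 48.2 ± 2.75 and 47.4 ± 3.84 CPM, with log2 fold changes of -0.12 (adjusted p = 0.643) and -0.14 (adjusted p = 0.393), neither of which passed.

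Genes of the c ring were not called either. Atp5g1 and Atp5g3 encode the same mature c subunit from separate genes. Atp5g1 (chr11:96068852-96075670) had 97.7 ± 2.98 CPM in WT, 99.6 ± 5.37 CPM in Dp16 and 98.6 ± 3.34 CPM in Dp16_2xIFNRs (SD, n = 6 each). Atp5g3 (chr2:73908447-73911326) had 149 ± 6.28, 149 ± 8.73 and 150.4 ± 4.59 CPM. The folds in Dp16 were 1.02 and 0.995. Atp5g2, the other gene of this subunit, had log2 fold changes of -0.08 in both comparisons (adjusted p = 0.792 and 0.674), and 34.7% of its 100-base stretches also occur in other genes.

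Of the 7 members outside the segment, 0 were called in Dp16, against 0.748% of all genes, and 0 in Dp16_2xIFNRs, against 1.05%. Their groups overlapped with WT for all 7 in both comparisons, while the groups of 0.919% and 1.34% of all genes did not. Their log2 fold changes in Dp16 ran from -0.03 to 0.03 with a median of -0.01, beside a median of 0.00 over all genes tested. In Dp16_2xIFNRs they ran from -0.04 to 0.02. The 95% intervals of all 7 lay within folds of 0.917 and 1.09 in Dp16 and of 0.911 and 1.09 in Dp16_2xIFNRs. No member outside the segment was called by edgeR or by DESeq2 in any comparison, and none had an unadjusted p below 0.05 by edgeR. Of all 18717 genes, 1655 had such a p in Dp16 and 2158 in Dp16_2xIFNRs. Among all 15 nuclear subunit genes outside the segment, the intervals spanned folds of 0.842 to 1.11 in Dp16 and 0.827 to 1.13 in Dp16_2xIFNRs. Every one of these intervals ended below the copy ratio of 1.5.

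**Figure D2:**
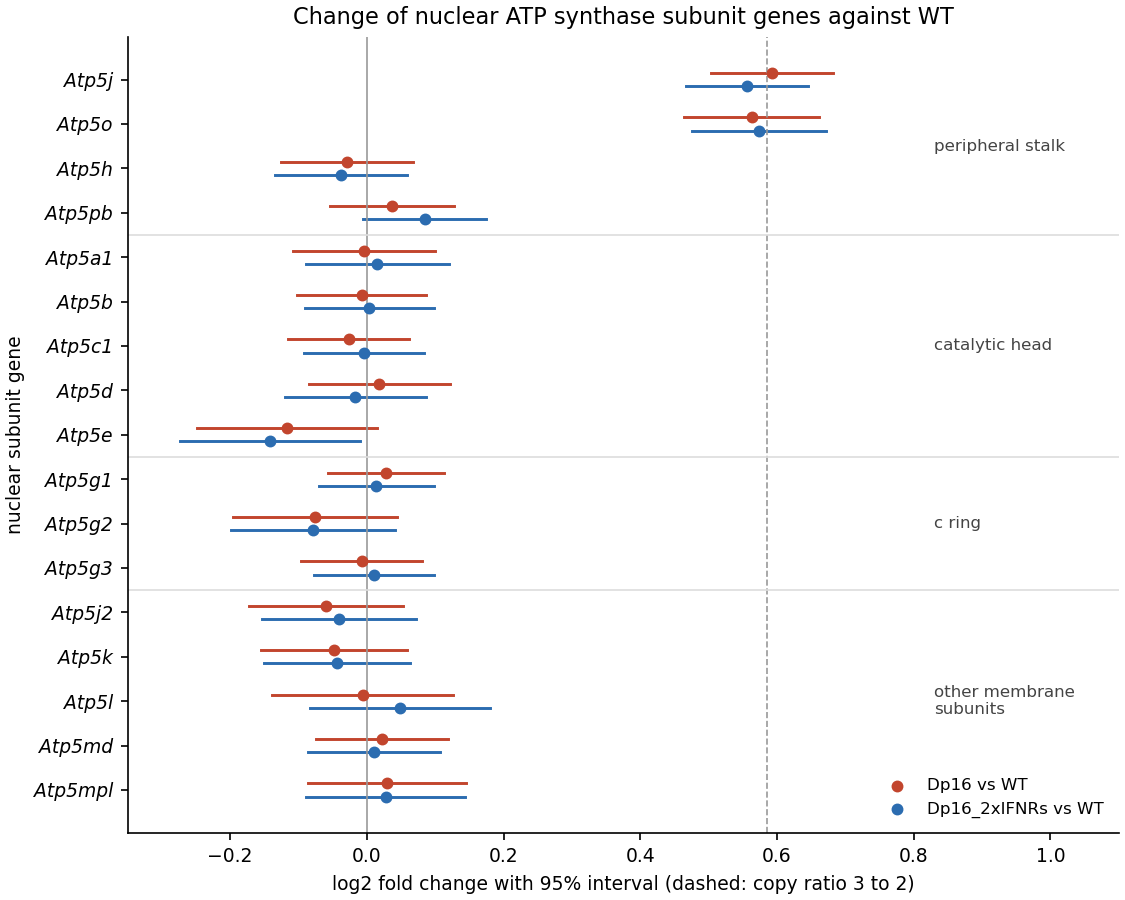
Log2 fold change against WT of 17 nuclear ATP synthase subunit genes with 95% intervals, for Dp16 and Dp16_2xIFNRs, grouped by place in the complex; the dashed line marks the log2 copy ratio of 0.585. Atp5j and Atp5o lie at the dashed line, and no interval of the other 15 genes reaches it.

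The 2 subunits encoded by mitochondrial DNA were measured with wider 95% intervals than the nuclear subunit genes. mt-Atp6, the a subunit of the proton channel, had 79.5 ± 24, 62.2 ± 17 and 68.2 ± 31 CPM (SD, n = 6 each), with log2 fold changes of -0.39 (adjusted p = 0.785) and -0.26 (adjusted p = 0.828). Its values are uncertain, since 99.5% of its 100-base stretches also occur in Gm10925, which held 2939 to 20546 counts per library. mt-Atp8 had 11 ± 7.04, 6.13 ± 0.680 and 11.8 ± 14.3 CPM. Its log2 fold changes were -0.88 (adjusted p = 0.723) and -0.03 (adjusted p = 0.994), with 95% intervals of -2.06 to 0.31 and -1.23 to 1.16. The Dp16_2xIFNRs mean rests largely on replicate 1, at 40.81 CPM, where the other libraries of the group had 4.264 to 7.317 CPM. WT libraries ranged from 4.99 to 23.0 CPM and Dp16 libraries from 5.47 to 7.03 CPM.

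Per length, the duplicated genes moved up in the order of the 9 members. In WT the RPKM means fell from Atp5b (500.0) through Atp5a1 (235), Atp5g3 (205), Atp5h (162), Atp5o (142), Atp5d (127), Atp5j (86.7) and Atp5c1 (84.4) to Atp5g1 (19.8). The ranges of Atp5h and Atp5o, of Atp5o and Atp5d, and of Atp5j and Atp5c1 overlapped between WT libraries, so these neighbours could not be ordered. In Dp16, Atp5o reached 212 ± 9.65 RPKM and took rank 3 in place of rank 5, beside Atp5g3 at 205 RPKM. Atp5j reached 132 ± 5.13 RPKM and rank 6 in place of rank 7, beside Atp5d at 129 RPKM. The ranges of both pairs overlapped in Dp16, as did those of Atp5a1 and Atp5o. Dp16_2xIFNRs gave the same ranks, with Atp5o at 214 ± 3.02 RPKM and Atp5j at 129 ± 6.14 RPKM (SD, n = 6 each). The low RPKM of Atp5g1 was computed by the authors with a length of 4912 bases, against 724 bases for Atp5g3.

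**Figure D3:**
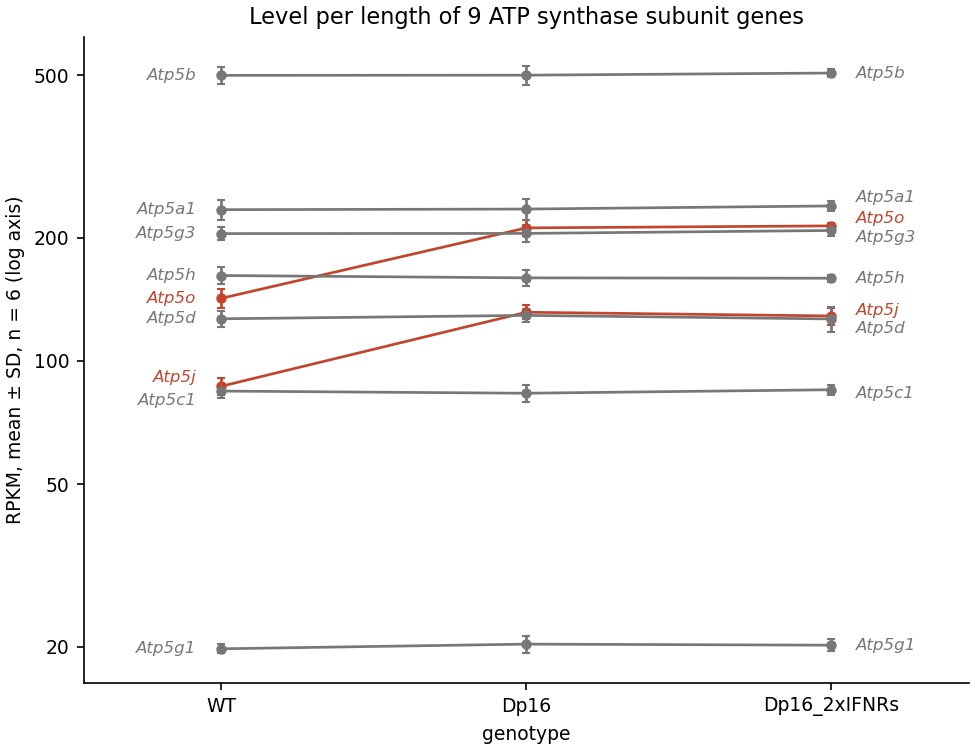
Mean RPKM with SD (n = 6) of the 9 subunit genes in each genotype on a log axis, with Atp5j and Atp5o in red. Atp5o climbs from 142 to 212 RPKM in Dp16 and Atp5j from 86.7 to 132 RPKM, while the lines of the other genes run nearly level.

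Stoichiometry at the RNA level was expressed as the RPKM ratio of a duplicated subunit to Atp5b within each library, which cancels library size. The Atp5j/Atp5b ratio ran from 0.158 through a median of 0.169 to 0.196 in WT, from 0.253 through 0.258 to 0.284 in Dp16 and from 0.241 through 0.257 to 0.263 in Dp16_2xIFNRs. All libraries of both duplication genotypes exceeded all WT libraries. The ratio changed 1.52-fold in Dp16 (95% interval 1.39 to 1.66) and 1.47-fold in Dp16_2xIFNRs (95% interval 1.35 to 1.59). Each exact two-sided permutation test over 924 arrangements gave p = 0.00216, the smallest possible, and 0.00487 after Benjamini-Hochberg adjustment over the 9 ratio tests.

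For Atp5o/Atp5b the ratio ran from 0.248 through a median of 0.290 to 0.304 in WT, from 0.409 through 0.420 to 0.440 in Dp16 and from 0.409 through 0.426 to 0.429 in Dp16_2xIFNRs. WT replicate 6 was the lowest library for both ratios, and no WT library reached the other genotypes. The change was 1.49-fold in Dp16 (95% interval 1.39 to 1.61) and 1.49-fold in Dp16_2xIFNRs (95% interval 1.39 to 1.60), each with an exact permutation p = 0.00216 and an adjusted value of 0.00487. Between the duplication genotypes, Atp5o/Atp5b differed by a factor of 0.999 (95% interval 0.969 to 1.03, exact permutation p = 0.952) and Atp5j/Atp5b by 0.966 (95% interval 0.915 to 1.02, exact permutation p = 0.19, adjusted 0.286).

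The proportion of both duplicated subunits to each other showed no difference beyond the spread. Atp5j/Atp5o was 0.610 ± 0.0309 in WT, 0.622 ± 0.0189 in Dp16 and 0.602 ± 0.0280 in Dp16_2xIFNRs (SD, n = 6 each), and the ranges overlapped. The change was 1.02-fold in Dp16 (95% interval 0.968 to 1.08, exact permutation p = 0.437, adjusted 0.562). In Dp16_2xIFNRs it was 0.987-fold (95% interval 0.927 to 1.05, exact permutation p = 0.636, adjusted 0.716). Both intervals lay between 0.927 and 1.08.

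Relative to the geometric mean of the 7 members outside the segment, Atp5j stood at 0.642 ± 0.0344 in WT, 0.971 ± 0.0409 in Dp16 and 0.945 ± 0.0286 in Dp16_2xIFNRs. Atp5o stood at 1.05 ± 0.0534, 1.56 ± 0.0378 and 1.57 ± 0.0338 (SD, n = 6 each). The 7 members themselves kept a ratio to Atp5b of 0.271 ± 0.00903 in WT, 0.271 ± 0.00244 in Dp16 and 0.269 ± 0.00414 in Dp16_2xIFNRs. Together Atp5j and Atp5o made up 9.65% ± 0.346 of the summed RPKM of the 17 nuclear subunit genes in WT, 13.9% ± 0.299 in Dp16 and 13.7% ± 0.141 in Dp16_2xIFNRs. The highest WT library, at 10.1%, lay below the lowest Dp16 library, at 13.5%. These values concern RNA, and protein levels and assembled complexes were not analysed here.

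**Figure D4:**
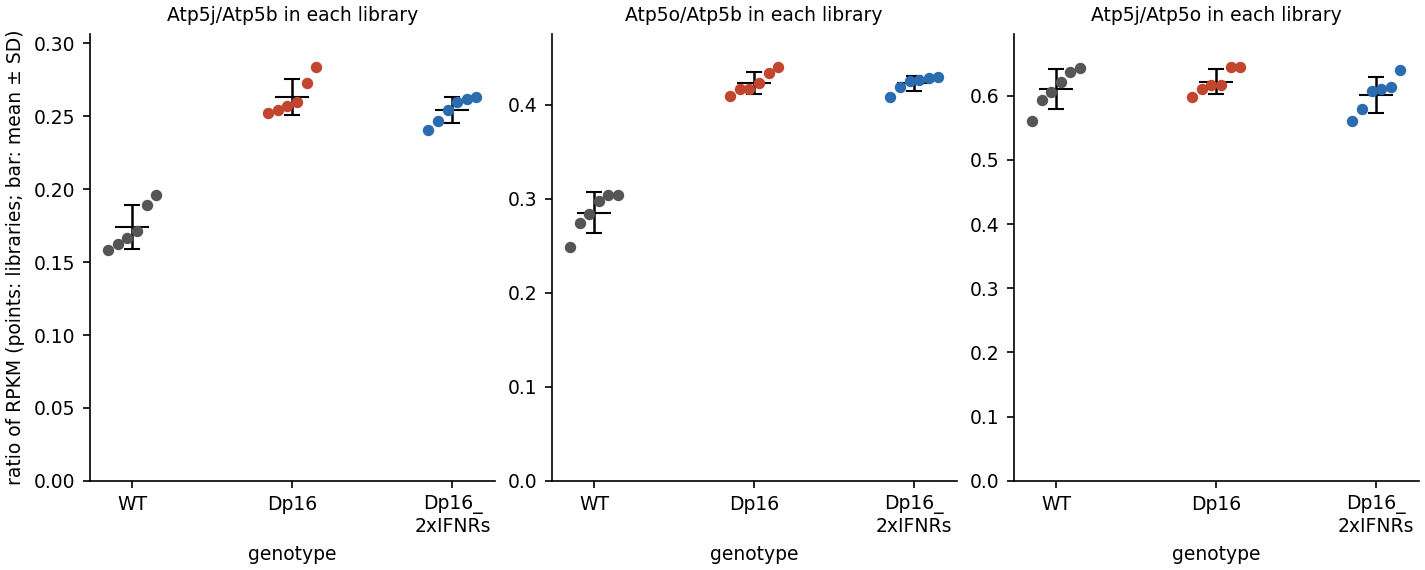
RPKM ratios Atp5j/Atp5b, Atp5o/Atp5b and Atp5j/Atp5o in each library by genotype; points are libraries in order of value and bars are mean ± SD (n = 6). The ratios to Atp5b separate WT from both duplication genotypes without overlap, whereas Atp5j/Atp5o overlaps in all 3 genotypes.

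Both genes were higher in Dp16 in each sex. Atp5j went from 93.9 ± 5.04 to 145 ± 8.77 CPM in Dp16 males and from 101 ± 1.69 to 148 ± 3.94 CPM in Dp16 females (SD, n = 3 each). Atp5o went from 119 ± 11.5 to 179 ± 13.5 CPM in males and from 121 ± 2.94 to 175 ± 8.12 CPM in females. The female fold change less the male one was -0.07 on the log2 scale for Atp5j (SE 0.0836) and -0.06 for Atp5o (SE 0.0973), each with an adjusted p of 1.0 by edgeR's interaction test. No gene was called for this interaction in any of the 3 comparisons. At an unadjusted p below 0.05 there were 577, 1098 and 350 genes for Dp16 vs WT, Dp16_2xIFNRs vs WT and Dp16_2xIFNRs vs Dp16, with no member among them, and the lowest member p was 0.0621 (Atp5g1).

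Within genotypes, the members varied together to unequal degrees. Pearson r was computed over 18 libraries from log2 CPM after genotype and sex had been removed. It is given as a description, since the points share library preparation and depth. The part of the cell type lists, such as the striatal markers, in these values was not tested. Among the 7 members outside the segment, r ran from 0.45 to 0.98 with a median of 0.57. Atp5a1 and Atp5b, the partners of the head, had the highest value at 0.98 (0.98 to 0.99 with any library left out). Atp5o had a median r of 0.53 with these 7 members and Atp5j of 0.42.

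Each duplicated gene followed a different subunit most closely. Atp5o varied with Atp5h, also of the stalk, at r = 0.94, which was 0.89 without WT replicate 6. With Atp5pb, the other stalk gene outside the segment, its r was only 0.39. The membrane subunit genes Atp5l (0.86) and Atp5k (0.81), which are not of the stalk, were closer to Atp5o. Atp5j varied with Atp5d at r = 0.87 (0.84 to 0.91 with any library left out). Between Atp5j and Atp5o themselves r was 0.66, and it was 0.52 without WT replicate 6. Atp5j and its divergent neighbour Gabpa, raised in the same genotypes, had r = -0.57 within genotypes, between -0.70 and -0.46 with any library left out.

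Over 9941 genes with a mean of at least 10 CPM, the genes most like Atp5j within genotypes were Scand1 (r = 0.95), Map1lc3a (0.92), 0610012G03Rik (0.91), Nudc (0.91) and Ndufa13 (0.90), the last a subunit of respiratory complex I. The genes most like Atp5o were Arpc4 (0.96), Atp5h (0.94), Ppp1r11 (0.93), Itm2b (0.92) and Cfl1 (0.92). No gene stood on both lists, and none of the 10 lies in the segment. Atp5o itself stood at rank 512 for Atp5j, and Atp5j at rank 806 for Atp5o. The members outside the segment stood at ranks 13 (Atp5d) to 2592 (Atp5a1) for Atp5j. For Atp5o they stood at ranks 2 (Atp5h) to 2047 (Atp5g3).

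**Figure D5:**
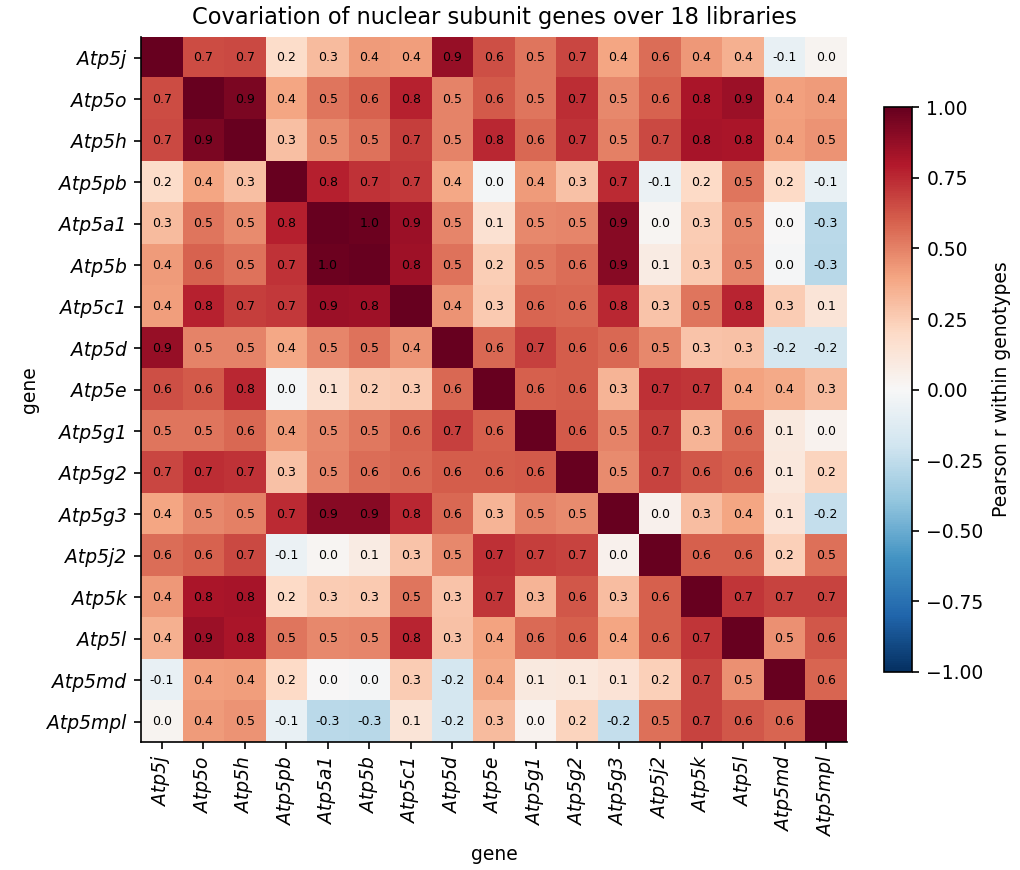
Pearson r between 17 nuclear subunit genes over 18 libraries after removal of genotype and sex, from blue (-1) to red (1). The block of Atp5a1, Atp5b, Atp5c1 and Atp5g3 and that of Atp5o, Atp5h, Atp5k and Atp5l stand out. Within the latter, Atp5o with Atp5h is highest (0.94). Atp5j is closest to Atp5d (0.87), while Atp5mpl has negative values with several genes, among them Atp5a1, Atp5b and Atp5g3.

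Among regulators of nuclear mitochondrial genes, Gabpa alone was called. Of 10 listed genes, 1 was called higher in each comparison with WT, Gabpa itself, and 0 were lower. Over all genes, 0.636% were called higher in Dp16 and 0.737% in Dp16_2xIFNRs. The median log2 fold change of the other 9 was -0.10 in Dp16 and -0.03 in Dp16_2xIFNRs. With Gabpa included, 1 of the 10 genes lay above WT in Dp16 and 2 in Dp16_2xIFNRs. The lowest adjusted p among them belonged to the coactivator gene Ppargc1a in Dp16 (log2 fold change -0.20, adjusted p = 0.345) and to the transcription factor gene Yy1 in Dp16_2xIFNRs (-0.14, adjusted p = 0.0994). Before adjustment, edgeR's p was 0.0113 in Dp16 and 0.0678 in Dp16_2xIFNRs for Ppargc1a, and 0.0148 and 0.00162 for Yy1. Yy1 lay below the WT mean in all 6 libraries of each duplication genotype, but the groups overlapped. Gabpb1, the partner of Gabpa in the ETS factor, had -0.12 in Dp16 and -0.02 in Dp16_2xIFNRs (adjusted p = 0.736 and 0.971). Gabpb2, the other partner gene, had -0.17 and -0.12 (adjusted p = 0.557 and 0.641), with a p of 0.047 in Dp16 before adjustment. Nrf1 had -0.04 and -0.02.

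Factors that inhibit or assemble the complex were not called either. The list of 7 genes had a median log2 fold change of -0.01 in Dp16 and -0.02 in Dp16_2xIFNRs, with 3 of 7 above WT in both. In these comparisons 0 of the 7 were called, against 0.748% and 1.05% of all genes. Atpif1, the inhibitor of ATP hydrolysis by the complex, had -0.02 in both (adjusted p = 0.96 and 0.921). Atpaf1 and Atpaf2, chaperones of the beta and alpha subunits, had -0.07 and -0.01 in Dp16 cortex, neither called (adjusted p = 0.879 and 0.992). Tmem70, an assembly factor of the c ring, had 0.01 in Dp16 and 0.09 in Dp16_2xIFNRs (adjusted p = 0.978 and 0.561).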

How the data were processed

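Polyadenylated RNA of 18 cortex samples was extracted with TRIzol, made into strand-specific libraries and sequenced from both ends, per the labels' protocols. The authors' tools included HISAT2 2.1.0 and HTSeq 0.6.1 with build GRCm38, and FastQC 0.11.5, bcl2fastq and SAMtools 1.5, per the submitters' processing notes. The deposited counts per gene are raw. The RPKM values deposited by the authors equalled count over library total over gene length for 31735 of 31735 genes with counts in at least 2 libraries (relative tolerance 1e-06). Genotype, sex and sample number came from the labels. The duplicated segment was taken from Lipi to Zbtb21 (chr16:75540514-97962622).

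Counts were filtered by filterByExpr (minimum count 10), scaled by TMM and fitted with edgeR 4.0.16 in R 4.3.3 (robust quasi-likelihood F test, genotype and sex, all 18 libraries, 14 residual degrees of freedom, common biological coefficient of variation 12.2%). Of the 18717 genes tested, 115 lay in the segment. Genes whose p, adjusted by Benjamini-Hochberg across every tested gene, was below 0.05 are termed called. Where no tool is named, an adjusted p is edgeR's. Ratios used RPKM without a pseudocount and exact permutation tests, with 95% intervals by inversion of the test. Covariation used log2 CPM with a prior count of 2. Scripts were tested on simulated data. RefSeq promoter windows and GENCODE M21 annotation came from reference tables. The alternatives were RLE size factors, DESeq2 1.42.0, TMM without the genes of the segment, other filters, no sex term, a block by sample number or by identifier, log2(RPKM + 1) or CPM for the ratios, and each library left out.

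The sample descriptions in the labels hold an identifier, of no stated meaning, that libraries of different genotypes can share. Of 12 identifiers, 5 were shared, by 11 libraries. The deviations from the group means correlated with r of 0.104 to 0.428 (median 0.27) in all 7 pairs with a shared identifier, and with a median of -0.017 in the 101 other pairs. The identifiers were therefore treated as pairing, but in alternative fits only. They entered as a fixed term without sex (edgeR) or a random effect (limma 3.58.1, consensus correlation 0.25). The main fit and the ratio tests held no identifier term.

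The members, gene lists and tests were chosen with earlier results of these data known. Named were all 9 members, complex V genes, called list genes, Gabpa and the nearest neighbours, the 5 genes most alike to Atp5j and to Atp5o, and a few list genes as values, which were chosen after their values were seen. Gene lists have no test of their own and are described by counts and medians.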

Additional observations from a re-analysis of the deposited data

Results flagged for a closer look

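Among 75 groups of 6 libraries (subunit levels and ratios), 5 held a library that stood apart from the rest of its group by Dixon's criterion at the 95% level, and chance gives about 1 in 20. WT replicate 6 had 109.3 CPM of Atp5h, where the other WT libraries had 124.1 to 129.5 CPM. The same library had the lowest Atp5o level relative to the geometric mean of the 7 members outside the segment, 0.9538 against 1.049 to 1.103. Without that library the log2 fold changes over WT were 0.572 for Atp5j and 0.526 for Atp5o in Dp16, and 0.534 and 0.535 in Dp16_2xIFNRs, beside 0.593, 0.563, 0.557 and 0.573 with it. Dp16 replicate 1 was highest for 2 membrane subunit genes, with 83.28 CPM of Atp5k (others 71.97 to 76.01) and 84.68 CPM of Atp5md (others 73.72 to 76.68). Dp16_2xIFNRs replicate 1 had 40.81 CPM of mt-Atp8, where the other libraries of its group had 4.264 to 7.317 CPM.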

How the results depend on the processing

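Atp5j and Atp5o were called higher than WT under all 27 alternatives in both comparisons. Log2 fold changes in Dp16 ran from 0.57 to 0.67 for Atp5j and from 0.53 to 0.61 for Atp5o (adjusted p up to 0.0103 by edgeR, limma or DESeq2), and in Dp16_2xIFNRs from 0.53 to 0.62 and from 0.54 to 0.61 (adjusted p up to 0.00161). None of the 7 other members was called under any alternative in any comparison. Of 621 uncalled values of members, 55 had the other sign. With single libraries left out, Atp5j/Atp5b differed from WT by 0.575 to 0.636 on the log2 scale in Dp16 and by 0.525 to 0.586 in Dp16_2xIFNRs, and Atp5o/Atp5b by 0.533 to 0.591 and 0.532 to 0.59.

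The count of called genes in Dp16 was 140, 102 to 147 with single libraries left out 241 by DESeq2 and 33 with the identifier block. For Dp16_2xIFNRs vs WT it was 196, with 396 by DESeq2 304 with the replicate block by sample number and 60 with the identifier block. With single libraries left out it ran from 121 (without Dp16_2xIFNRs replicate 2) to 270, with 125 without WT replicate 2. Between the duplication genotypes it was 4, 3 to 5 under the other alternatives and 2 with the identifier block. With the identifier as a random effect (limma), 154, 276 and 4 genes were called. The identifier blocks changed no call of a member and were chosen after seeing the data. For the ratios, at most 3 pairs per comparison share an identifier, too few for an exact test below 0.05.

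Sample numbers did not meet the criterion for pairing that every correlation exceed 0.1. This held for 11 of 18 same-numbered pairs (-0.181 to 0.428, median 0.178) and 15 of 90 others (median -0.035), and 11 of 18 libraries correlated best with their own number. In a replicate block of the ratios, sign flips over 6 pairs allow no p below 0.03125. The log2 differences of 0.601 and 0.551 (Atp5j/Atp5b, Dp16 and Dp16_2xIFNRs) and 0.572 and 0.571 (Atp5o/Atp5b) then had an adjusted exact p of 0.0703 over the 9 tests, which did not pass 0.05. Leaving out libraries for the correlations was chosen after seeing the data.

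Each member held at least 4181 counts in every library, and no test of depth was run.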

Other observations

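Another pair of gene groups linked to ATP and proton transport were described by the same fit. Of 6 genes for substrate and energy transport, 0 were called in either comparison with WT, against 0.748% and 1.05% of all genes. In Dp16, 4 lay above WT (median log2 fold change 0.02), and in Dp16_2xIFNRs 5 did (median 0.04). Slc25a3, the mitochondrial phosphate carrier, had 0.01 in Dp16 and 0.03 in Dp16_2xIFNRs (adjusted p = 0.972 and 0.82 by edgeR). Slc25a4, an ADP/ATP carrier, had 0.05 in both (adjusted p = 0.859 and 0.779). The vacuolar proton pump, a related enzyme that spends ATP to acidify vesicles, has no listed gene in the segment. Of its 12 listed genes 0 were called in Dp16 or Dp16_2xIFNRs, against 0.748% and 1.05% of all genes. In each comparison 10 of them lay above WT, and the median log2 fold changes were 0.01 and 0.03, beside 0.00 over all genes.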
